A study of Homo sapiens with 8 samples.

Results

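The apolipoprotein L genes of chromosome 22 were followed across K562 cells in which IRF2, a DNA-binding protein of the interferon regulatory factor family, was repressed. The members were the 5 genes APOL1, APOL2, APOL3, APOL4 and APOL6, out of 35805 rows in the deposited table. They were chosen by name among the family's genes on that chromosome, with their measured values in these libraries known. APOL5, the family's other gene there, had no reads and is not a member. Of the 5, 4 entered the tests over 14665 genes. APOL3 did not enter them because its mean log2 value over all libraries was -0.87, below the required 0. Its control libraries lay above 0 (0.12 to 1.29), and its guide libraries held no reads. K562 is a chronic myeloid leukaemia line, and all cells carried dCas9-KRAB, a Cas9 without nuclease activity fused to a repressor domain. The 8 libraries came from 4 groups with 2 libraries each. Untransduced cells held no guide RNA. The other groups held the control guide sgAAVS1, which targets the AAVS1 site, or 1 of 2 guides against the IRF2 gene (sg1-IRF2, sg2-IRF2), and their RNA was taken 7 days after transduction. There was 1 control guide, and separate cultures are not named for the libraries in the labels.

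Apolipoprotein L proteins are amphipathic proteins that act at membranes, and despite their name most of them stay inside the cell. APOL1 is secreted into a class of high-density lipoprotein particles that kill trypanosomes. APOL3 is a cytosolic protein that can solubilise bacterial membranes, and APOL6 carries a BH3-like segment and promotes cell death when overexpressed. Interferons raise the RNA of several family members in endothelial and myeloid cells, and the promoters of interferon-responsive genes often hold repeats of GAAA to which interferon regulatory factors bind.

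The recovered reads summed to between 5248359 and 6738348 per library. IRF2 itself was read 196 to 291 times in each of the 4 control libraries, 4 and 8 times with sg1-IRF2, and 22 and 21 times with sg2-IRF2. Both libraries of a group differed by less than sampling noise in 3 of the 4 groups (chi-square per degree of freedom 0.672 to 0.828), whereas the sgAAVS1 libraries differed by more (1.64). The libraries of untransduced cells lay nearer to sg2-IRF2 (1.12 to 1.31) than to sgAAVS1 (1.92 to 2.09) or sg1-IRF2 (1.90 to 1.95). Each sgAAVS1 library lay nearer to the like-numbered library of sg1-IRF2 (1.12 and 1.23) than to the other sgAAVS1 library. This split of the libraries runs along the comparisons of sg1-IRF2 with sg2-IRF2 and of sgAAVS1 with untransduced cells. It also runs along those of sg2-IRF2 with sgAAVS1 and of sg1-IRF2 with untransduced cells. Its part in these comparisons was not tested. All 11 erythroid markers of K562 had reads, and their summed level was 1243 to 1373 RPM (reads scaled to the library total) over the 8 libraries.

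APOL1, APOL2 and APOL3 share a short run of sequence near a transcript start, shown because it holds the kind of repeat to which interferon regulatory factors bind. The letters searched were GAAANNGAAA and, for the other strand, TTTCNNTTTC, with overlapping matches joined. Capitals mark the matched bases in 28-base windows of first exons, all annotated as 5′ UTR in these transcripts (GENCODE release 29, hg38, given 5′ to 3′ on the transcript's strand). The printed APOL3 match lies in 5 annotated transcripts and is coding sequence in 4 of them.
APOL1, chr22:36253068-36253095, plus strand: tgtgacTTTCACTTTCCCTTTCgaattc
APOL2, chr22:36239565-36239592, minus strand: tgtgacTTTCACTTTCCCTTTCgaattc
APOL3, chr22:36160793-36160820, minus strand: tgtgacTTTCACTTTCccttttgggttc
The windows of APOL1 and APOL2 are identical and hold 2 overlapping matches each, and the window of APOL3 differs from them at 3 of 28 bases and holds 1 match. In the first 100 bases of transcripts the letters were found in 4 of 12 transcripts of APOL1 and 2 of 9 of APOL2, and in none of APOL3, APOL4 or APOL6. Over the 19897 protein-coding genes, 5.13% held a match there. In the first 200 bases the share was 9.29% of genes, and 8 of 21 transcripts of APOL3 then held one. A match is a description of these letters, and its absence says only that they are not in this window.

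All members lie on the long arm of chromosome 22 (hg38). APOL6 stands apart at positions 35648395 to 35668409 on the plus strand. The others are packed together, with APOL3 at 36140330 to 36166177, APOL4 at 36189124 to 36204840 and APOL2 at 36226203 to 36239954 on the minus strand, and APOL1 at 36253010 to 36267530 on the plus strand. No exon of the 5 genes overlaps an exon of another annotated gene. Their transcripts are similar in part, with a longest shared stretch of 58 bases for APOL1 with APOL2 and for APOL1 with APOL3. Stretches of 50 bases shared with another member made up 0.608% of those in APOL1, 0.383% in APOL2 and 0.140% in APOL3, and none of those in APOL4 or APOL6. Since the read length is not given in the sources used here, how many reads could be placed on more than 1 member is not known.

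In control cells APOL1, APOL2 and APOL4 were at a like level per length, APOL6 was lower and APOL3 lowest. Levels per length are RPKM values computed from the recovered reads over the union of a gene's exons, with mean ± SD of 2 libraries. With sgAAVS1 the order was APOL2 at 9.32 ± 0.73, APOL1 at 8.98 ± 1.14, APOL4 at 7.97 ± 0.19, APOL6 at 1.95 ± 0.33 and APOL3 at 0.33 ± 0.04. In untransduced cells the order was APOL4 at 8.11 ± 0.39, APOL2 at 8.03 ± 1.53, APOL1 at 7.56 ± 0.75, APOL6 at 1.60 ± 0.14 and APOL3 at 0.23 ± 0.10. In both groups neighbours among the 3 upper genes lay within their spread of each other, and the steps down to APOL6 and from APOL6 to APOL3 exceeded it. With sg1-IRF2 the order was APOL4 (9.21 ± 0.21), APOL2 (7.28 ± 0.56), APOL1 (2.79 ± 0.11) and APOL6 (0.20 ± 0.03), as in untransduced cells. Unlike in both control groups, APOL1 then lay below APOL2 by more than their spread. With sg2-IRF2 APOL2 (7.48 ± 0.57) and APOL4 (7.12 ± 0.33) lay within their spread, above APOL1 (2.62 ± 0.23) and APOL6 (0.11 ± 0.09). APOL3 had no reads with either guide.

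**Figure D1:**
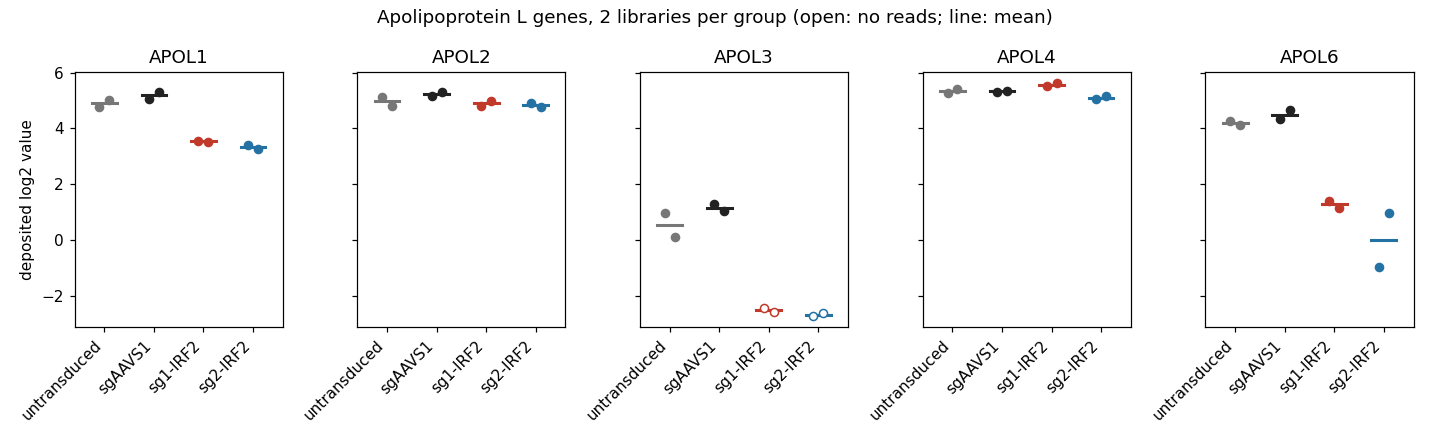
Deposited log2 values of the 5 apolipoprotein L genes in each of the 8 libraries, by group (horizontal axis), with group means as lines and libraries without reads as open points. The guide libraries lie below all control libraries for APOL1, APOL3 and APOL6, and overlap them for APOL2 and APOL4.

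APOL6, APOL1 and APOL3 were lower in every library with an IRF2 guide than in every control library, and APOL2 and APOL4 were not. The share of all genes with such a gap is not given here, so nothing is read from this split. Because the members were chosen with these values known, the differences between IRF2 guides and either control are descriptions. The fit's calls for them are counted once, beside the share of all genes, and support nothing. The comparisons with sgAAVS1 and with untransduced cells share the 4 guide libraries. In RNA from whole cultures, fewer cells with a transcript and less RNA per cell cannot be told apart.

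Among the 4 tested members, which leave out APOL3, APOL6 differed most from either control. Its log2 values were 4.25 and 4.12 in the untransduced libraries and 4.33 and 4.66 in those of sgAAVS1. They were 1.40 and 1.16 in the sg1-IRF2 libraries and -0.97 and 0.98 in the sg2-IRF2 libraries. The control values stand for 108, 96, 91 and 149 reads, and the guide values for 13, 12, 3 and 11. The groups did not overlap, and the gap between the lowest control and the highest guide library was 2.72 on the log2 scale. The fitted log2 difference of both guides from sgAAVS1 was -3.85 ± 0.31 (SE), a 14.5-fold lower level, and from untransduced cells it was -3.54 ± 0.31. From the reads, sgAAVS1 was 9.49-fold above sg1-IRF2 (95% exact counting interval 6.27 to 15.0) and 18.9-fold above sg2-IRF2 (11 to 35.0). Only 2 of the 14665 tested genes had a lower difference from sgAAVS1.

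APOL1, the secreted member, was lower by a smaller factor and with little scatter. Its log2 values were 4.79 and 5.03 in the untransduced libraries, 5.06 and 5.30 in those of sgAAVS1, 3.56 and 3.51 in those of sg1-IRF2 and 3.42 and 3.25 in those of sg2-IRF2. Reads were 151 to 232 per control library and 53 to 63 per guide library, again without overlap. The log2 difference from sgAAVS1 was -1.75 ± 0.11, a 3.36-fold lower level, and it was -1.65 ± 0.13 for sg1-IRF2 alone and -1.85 ± 0.13 for sg2-IRF2 alone. Against untransduced cells it was -1.47 ± 0.11. APOL1 stood 23rd from the lowest of the tested genes in the comparison with sgAAVS1.

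APOL3 was a rare transcript that was read in controls only. It had 11 and 6 reads in untransduced cells, 11 and 12 with sgAAVS1, and 0 in each of the 4 guide libraries. Measured against a floor of 3 reads over the guide libraries together, it was at least 16-fold lower than with sgAAVS1 and at least 11-fold lower than in untransduced cells. This floor takes the control reads as exact, and the lower limits of the exact 95% counting intervals of both counts were 12-fold and 8.03-fold. Such low counts give no finer order between APOL3 and APOL6.

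APOL2, an intracellular member whose first exon holds the repeat shown above, differed little. Its log2 values were 5.14 and 4.80 in the untransduced libraries, 5.16 and 5.30 in those of sgAAVS1, 4.81 and 4.995 in those of sg1-IRF2 and 4.91 and 4.76 in those of sg2-IRF2. The guide libraries lay below both sgAAVS1 libraries but overlapped the untransduced ones. The log2 difference was -0.36 ± 0.10 from sgAAVS1 and -0.10 ± 0.10 from untransduced cells. From sgAAVS1 it was -0.32 ± 0.11 for sg1-IRF2 alone and -0.39 ± 0.11 for sg2-IRF2 alone.

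For APOL4 the mean of the guides lay close to the controls, with the guides on either side of them. Its log2 values were 5.25 and 5.40 in the untransduced libraries, 5.32 and 5.34 in those of sgAAVS1, 5.54 and 5.61 in those of sg1-IRF2 and 5.04 and 5.15 in those of sg2-IRF2. Both sg1-IRF2 libraries lay above all 4 controls and both sg2-IRF2 libraries below them. The log2 difference from sgAAVS1 was 0.24 ± 0.09 for sg1-IRF2 and -0.24 ± 0.09 for sg2-IRF2, and 0.00 ± 0.07 for both.

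Of the 4 tested members, APOL1 and APOL6 were called lower (adjusted p under 0.05) with both guides against sgAAVS1, where 1.59% of all tested genes were called in either direction and 1.10% lower. The same 2 were called lower against untransduced cells, where 2.50% were called in either direction and 1.51% lower. Nothing is read from these member counts, because the choice of members used the values. APOL2 was not called with both guides against sgAAVS1 here, and was called without the filter on low values. Its difference was -0.42 without sgAAVS1 replicate 1 and -0.40 without sg1-IRF2 replicate 2. For sg2-IRF2 alone against sgAAVS1 it was called lower (limma adjusted p = 0.0286), and for sg1-IRF2 alone it was not (limma adjusted p = 0.337). The share of all genes called in those comparisons of a single guide is not given here. Without a mean-variance trend in the model, APOL6 was not called.

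**Figure D2:**
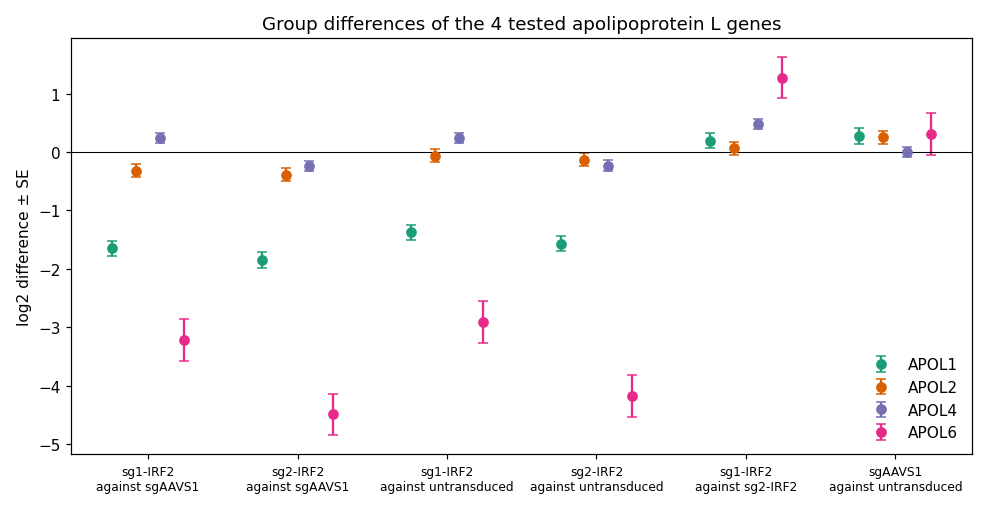
Log2 differences with standard errors (vertical axis) of the 4 tested apolipoprotein L genes in 6 comparisons between groups (horizontal axis). APOL6 and APOL1 lie below 0 in the 4 comparisons of a guide with a control, while APOL4 lies above 0 with sg1-IRF2 and below it with sg2-IRF2.

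The make-up of the family's RNA differed accordingly. The 5 genes together had 594 to 863 reads in control libraries and 412 to 506 in guide libraries. APOL4 made up 27.7% to 34.8% of these reads in controls and 44.4% to 52.2% with the guides. APOL6 made up 14.4% to 17.3% in controls and 0.686% to 2.98% with the guides. The share of APOL1 was 22.6% to 27.0% in controls and 12.1% to 14.4% with the guides, and that of APOL2 was 22.9% to 28.9% against 31.6% to 40.5%. Within a library the shares sum to the whole, so a higher share of APOL4 is not a higher level. For the lowest share of APOL6, 3 of 437 reads with sg2-IRF2 replicate 1, the exact 95% binomial interval was 0.142% to 1.99%, and it covers counting error only.

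**Figure D3:**
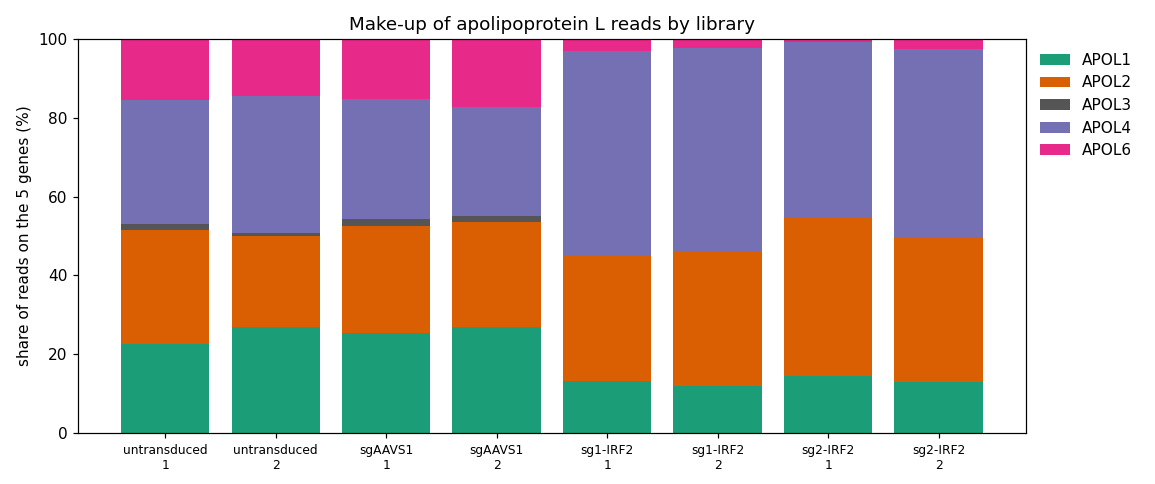
Share of the reads on the 5 apolipoprotein L genes that fell on each gene (vertical axis, percent), for each of the 8 libraries (horizontal axis). APOL6 and APOL1 take smaller shares in the 4 guide libraries than in the 4 control libraries, and APOL4 and APOL2 take larger ones.

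The guides to IRF2 were compared with each other to see whether the members had like levels with both. As the split of the libraries also runs along this comparison, different effects of the guides cannot be told apart from it. The choice of members does not rest on this contrast, but its values were known. APOL4 and APOL6 were both higher with sg1-IRF2 than with sg2-IRF2. The log2 difference of APOL4 was 0.48 ± 0.09 (limma adjusted p = 0.00125), and that of APOL6 was 1.28 ± 0.36 (limma adjusted p = 0.0217). APOL1 (0.20 ± 0.13, adjusted p = 0.306) and APOL2 (0.07 ± 0.11, adjusted p = 0.705) did not pass. IRF2 itself went the other way and was lower with sg1-IRF2, by a log2 difference of -1.77 ± 0.21 (adjusted p = 9.73e-06).

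These 2 calls of 4 stood in a comparison where 13.3% of all tested genes were called and 12.7% were called higher. The median of all tested genes was itself 0.11 higher with sg1-IRF2. Relative to that median APOL4 was 0.37 higher and APOL6 1.16 higher. Of all genes 1859 were called higher and 93 lower, and with library medians aligned these counts were 86 and 145. With medians aligned APOL4 was still called (0.37, adjusted p = 0.0191) and APOL6 was not (adjusted p = 0.169).

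The difference of APOL6 between guides rested on 1 library, sg2-IRF2 replicate 1, in which it had 3 reads. Without that library it was 0.30 (adjusted p = 0.526), and without the other sg2-IRF2 library 2.25. For APOL4 the call was lost without sg1-IRF2 replicate 2 (0.44, adjusted p = 0.0508). When the replicates that differed by less than sampling noise were averaged to 1 library each, neither gene passed. Only the sgAAVS1 libraries then gave a residual spread, so that fit holds no spread from the guides compared.

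The control guide was examined by setting sgAAVS1 against untransduced cells. The split of the libraries also runs along this comparison, so an effect of the guide cannot be told apart from it. The log2 differences were 0.28 ± 0.13 for APOL1, 0.26 ± 0.11 for APOL2, 0.31 ± 0.36 for APOL6 and 0.01 ± 0.09 for APOL4. None of the 4 was called by limma (adjusted p = 0.252, 0.199, 0.702 and 0.985), and none by limma-voom on the recovered reads, where 4.75% of all tested genes were called by limma. At the unadjusted threshold of 0.05 there were 2, APOL1 and APOL2, and 19.0% of all tested genes. The difference of APOL2 between the guides and sgAAVS1 (-0.36) and this one between the controls share the sgAAVS1 libraries. Genes called were 435 higher and 262 lower, and 302 and 346 with library medians aligned.

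Tested genes around the family showed small differences. Within 500 kb of the members the table lists 28 other genes, of which 18 had no reads and 8 were tested. None of the 8 was called by limma with both guides against sgAAVS1 or against untransduced cells. At the unadjusted threshold of 0.05 there was 1 in each, FOXRED2, while 10.6% and 14.0% of all tested genes passed it. Against sgAAVS1 the log2 differences of the 8 ran from -0.13 (FOXRED2) to 0.14 (TOM1). RBFOX2, an RNA-binding splicing regulator that lies between APOL6 and APOL3, differed by -0.04 ± 0.06, and MYH9, the non-muscle myosin heavy chain gene beside APOL1, by -0.06 ± 0.04. The other 7 genes between members had no reads: APOL5, RP1-41P2.7, RP1-78B3.1, CTA-212A2.1, CTA-212A2.2, CTA-212A2.3 and CTA-212A2.4.

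**Figure D4:**
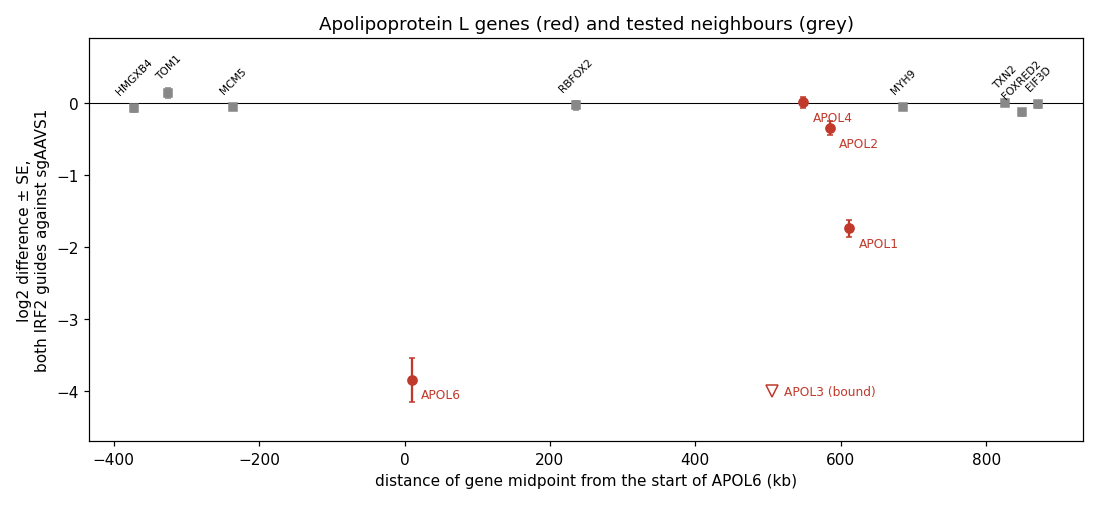
Log2 difference with standard error of both IRF2 guides against sgAAVS1 (vertical axis) for the apolipoprotein L genes (red) and 8 tested neighbours (grey), by distance of the gene midpoint from the start of APOL6 in kb. The open triangle is APOL3 against a floor of 3 reads (16-fold lower), and the neighbours lie between -0.13 and 0.14.

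Between the guides, HMGXB4 (0.18 ± 0.06), MYH9 (0.13 ± 0.04) and FOXRED2 (0.37 ± 0.06) were called higher with sg1-IRF2 (adjusted p = 0.0451, 0.0429 and 0.000581), in the comparison where 12.7% of all genes were called higher and their median was 0.11. Between the controls, TOM1 was lower with sgAAVS1 (-0.28 ± 0.08, adjusted p = 0.0395) and FOXRED2 higher (0.29 ± 0.06, adjusted p = 0.00392). The more distant relative APOLD1, an endothelial gene on chromosome 12, had log2 values from 5.94 to 6.14 over the 8 libraries, and its guide and control ranges overlapped. Part of its exons overlap those of DDX47 on the same strand, which leaves the assignment of its reads uncertain.

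Genes were examined in lists, of which 1 held partners of apolipoprotein L proteins and the others genes of related names, pathways or cell types. The median of all tested genes was -0.02 against sgAAVS1. Of 11 genes for Golgi and phosphoinositide partners of APOL1 and APOL3, all were tested and none was called by limma in any of the 4 comparisons, with 1, 2, 5 and 1 past the unadjusted threshold of 0.05. Of all tested genes 10.6%, 14.0%, 31.4% and 19.0% passed that threshold in the same comparisons (both guides against sgAAVS1, both against untransduced cells, between the guides and between the controls). In the comparison with sgAAVS1 their median was -0.03, and the most abundant, OSBP and ARF1, differed by 0.05 ± 0.04 and -0.03 ± 0.04. Of 10 genes for trypanosome lytic factor and lipoprotein components, 4 were tested and none was called against sgAAVS1. Their median there was 0.01, and none passed the unadjusted threshold of 0.05. APOE, a lipid carrier of plasma lipoproteins, was higher with the guides against untransduced cells (0.26 ± 0.06), while it was not called with the guides against sgAAVS1 (0.09 ± 0.06) or with sgAAVS1 against untransduced cells (0.17 ± 0.07). Of 9 other genes with an apolipoprotein name 3 were tested and none was called against either control, nor passed the unadjusted threshold. The receptor gene APOBR was higher with sg1-IRF2 than with sg2-IRF2 (0.32 ± 0.06, adjusted p = 0.00195).

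Of 11 guanylate-binding proteins and immunity-related GTPases, interferon-induced proteins of host defence, 4 were tested and none was called against sgAAVS1. The unadjusted threshold was passed there by 1 of the 4, and by 10.6% of all tested genes. Their median was -0.46, with GBP4 at -0.88 ± 0.44 and GBP5 at -0.83 ± 0.39, a pair named after their values were seen. Against untransduced cells GBP2 was lower with the guides (-0.53 ± 0.09), and it was also lower with sgAAVS1 than in untransduced cells (-0.44 ± 0.10, adjusted p = 0.0112). Of 9 interferon transcription factors 8 were tested, and IRF2 alone was called against sgAAVS1 (-4.51 ± 0.18). IRF1, an activator that binds the same elements as IRF2, was called against neither control (-0.09 ± 0.09 from sgAAVS1 and -0.12 ± 0.09 from untransduced cells).

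Of 16 members of the BCL2 family, regulators of mitochondrial cell death, 14 were tested and none was called against sgAAVS1. Their median there was -0.01, and 3 passed the unadjusted threshold, as did 10.6% of all tested genes. PMAIP1 was lower against untransduced cells both with the guides (-0.39 ± 0.06) and with sgAAVS1 (-0.41 ± 0.07, adjusted p = 0.000712), and differed by 0.02 ± 0.06 between them. With sgAAVS1 against untransduced cells BBC3 was also called lower (-0.36 ± 0.09) and BCL2L11 higher (0.25 ± 0.07), where 4.75% of all tested genes were called. BCL2L1 (0.20 ± 0.05) and BCL2L11 (0.25 ± 0.07) were called higher with sg1-IRF2 than with sg2-IRF2, where 12.7% of all tested genes were. Of 6 genes of Golgi and lysosome fusion, all were tested, none was called against sgAAVS1 and 1 passed the unadjusted threshold, and STX17 was lower against untransduced cells (-0.21 ± 0.06). Among markers of other cells, COL1A1 was the 1 gene of 4 tested from a list of 7 for adherent or stromal lines that was called against sgAAVS1 (-0.32 ± 0.08). COL1A2 differed by -0.55 ± 0.16 without passing, and was lower against untransduced cells (-0.86 ± 0.16). The summed level of that list was 406 to 435 RPM in guide libraries and 416 to 465 in controls, with COL3A1 and CDH2 at 0 reads. Monocyte markers summed to 137 to 149, lymphoid markers to 121 to 135 with MS4A1 at 0, and endothelial markers to 35.2 to 47.8 RPM with KDR, VWF and CDH5 at 0. The part of these levels in the results for the members was not tested.

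The genes whose profiles over the 8 libraries were most like each tested member were found by the root mean square difference of centred log2 values, among 12499 genes. This is a description, and the libraries of a group are not independent of the group. For APOL1 they were ERAP1 (0.177 log2 units), a peptide-trimming enzyme of antigen presentation, and GPR158, BTN3A2, FAM111A and PARP12. APOL1 itself deviated by 0.819 from its own mean. For APOL6, which deviated by 1.97, they were SAMD9 (0.780), an antiviral protein, and DTX3L, C19orf66, PARP9 and OAS3. DTX3L and PARP9 lie opposite each other, and without the strand setting their reads are uncertain. SAMD9 differed from sgAAVS1 by -3.02 and ERAP1 by -1.43 on the log2 scale with both guides.

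The profiles of APOL2 and APOL4 were flatter, with deviations of 0.184 and 0.176. The nearest genes to APOL2 were ZNF280C (0.0656), MAP2K3, ZSWIM3, MAGEA1 and SH2D1B, and those to APOL4 were GLCE (0.0439), SRR, PSMD5-AS1, AGA and MGST1. None of these genes lies on chromosome 22.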

How the data were processed

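RNA was depleted of ribosomal RNA and made into directional libraries, per the labels. The tools cutadapt and Bowtie2 and the build hg38 are named, without roles, in the submitters' processing notes. What is not given in the sources used here are their versions, the counting tool, strand setting, read length, treatment of duplicates and annotation release. Each deposited value is the log2 of a gene's reads times 1 factor per library. On the linear scale all were whole multiples of 1 read (100%, tolerance 0.01 read), with genes without reads at 0.9 read, and reads were recovered from them. Members reached at most 0.0663 reads per exonic base, against 0.411 for GAPDH. Intervals and floors cover counting error only.

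Genes whose mean log2 value reached 0 were fitted in 1 model of the 4 groups (limma 3.58.1, R 4.3.3, eBayes with a mean-variance trend, two-sided, Benjamini-Hochberg over 14665 genes, 4 residual and 22.4 prior degrees of freedom). The fit was tested on simulated data. Errors of differences are standard errors. P-values measure only the spread between libraries, which may be technical. Libraries were compared by chi-square over genes with 10 or more reads in the pair. Replicates within sampling noise were kept as 2 libraries, and averaging them was tried as an alternative. Filters, scaling, trend, voom, a replicate block and leaving out each library were the other alternatives. Annotation was GENCODE release 29, whose spans equal those of the table for all members. Python 3.11.15 with pandas 2.3.3 and scipy 1.17.1 was used for the rest.

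Members and lists were chosen with earlier results of these data known. Named were the members, APOL5, APOLD1, genes between members, called neighbours within 500 kb, up to 4 called genes per list or its 2 most abundant, and the 5 genes most like each tested member. The letters near transcript starts were searched in windows chosen after seeing the data.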

Additional observations from a re-analysis of the deposited data

Results flagged for a closer look

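The libraries of the guides to IRF2 differed for 2 members, by a test of sg1-IRF2 against sg2-IRF2. The split of the libraries also runs along this comparison, so different effects of the guides cannot be told apart from it. APOL4 was higher with sg1-IRF2 by 0.48 on the log2 scale (limma adjusted p = 0.00125). APOL6 was higher with sg1-IRF2 by 1.28 (limma adjusted p = 0.0217). The reads behind APOL6 numbered 13 and 12 in the sg1-IRF2 libraries against 3 and 11 in those of sg2-IRF2, and without sg2-IRF2 replicate 1 the difference was 0.30. In this comparison 13.3% of all tested genes were called, 12.7% higher, and their median was 0.11. With library medians aligned APOL6 was not called (adjusted p = 0.169), and with replicates within sampling noise averaged neither gene was.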

How the results depend on the processing

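No member changed direction while called. The count of members called with both guides against sgAAVS1, 2 of 4, was 4 of 5 without the filter on low values (APOL2 and APOL3 were added) and 1 without the mean-variance trend. Against untransduced cells the 2 calls became 1 without the trend. Between the guides the 2 calls became 1 with library medians aligned, with quantile normalization, with limma-voom and with only the groups compared, 0 without the trend, 0 with replicates within sampling noise averaged, and 0 to 2 when each library was left out in turn. APOL6 lost that call in 11 of 18 alternatives (adjusted p 1.07e-05 to 0.526) and APOL4 in 3 of 18 (4.99e-06 to 0.394).

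Over all genes, 233 were called against sgAAVS1, with 636 unfiltered, 60 without the trend, 106 with replicates averaged, 117 with all controls as 1 group and 141 to 428 leaving out a library. Against untransduced cells 366 were called, with 649, 54, 60 and 106 to 823 in the same order without the pooled controls, and 835 with only the groups compared. Of the 366 calls 144 were higher, and 117 of 433 with limma-voom. Between the guides 1952 became 231 with medians aligned, 287 with quantile normalization, 237 with limma-voom, 2 without the trend, 20 with replicates averaged, 4033 with only the groups compared and 115 to 3628 leaving out a library. Between the controls 697 became 1184 unfiltered, 11 without the trend, 57 with replicates averaged and 183 to 1456 leaving out a library.

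In the fit with a replicate block the members called were 2, 2, 2 and 0 in the 4 comparisons, as without it. The differences between replicates 1 and 2 correlated by 0.216 between sgAAVS1 and sg1-IRF2, whose like-numbered libraries lay near each other. Between the other pairs of groups they correlated by -0.0794 to 0.0244. Levels per length used all exons of a gene, and with the longest transcript as length APOL4 was at 11.8 in place of 9.21 with sg1-IRF2. The double GAAA repeat was found in 2 members, in 3 with a spacing of 1 to 3 bases (12.1% of genes) and in 3 in 200 bases. The depth limits APOL3 and, with the guides, APOL6, where 3 to 13 reads stand behind each value.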
